A study of Zea mays with 6 samples.

Results

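The guide strands of the miR166 family and the homeobox-leucine zipper genes cleaved at their sites were examined in maize ovaries. A known miRNA was taken as a guide strand when its name placed it in the miR165 or miR166 family and its arm was not the 5p arm, which gave 7 of the 161 known miRNAs. A degradome gene was taken when a row of this family was annotated as a homeobox-leucine zipper (HD-ZIP) gene, which gave 4 of 113 genes, in 31 of 471 rows. The ovaries came from the maize inbred line Yu-A474, unpollinated and grown without stress, whose ears bear ovaries with incompletely fused carpels (IFC) beside ovaries with completely fused carpels (CFC). The CFC ovaries are called wild-type in the sample labels. Small RNA was sequenced from 2 IFC and 2 CFC samples collected at silking, with the replicates of a phenotype taken from different ear rows. The IFC ovaries were taken near CFC ovaries on the same ear, in its middle part. The degradome, the sequenced 5′ ends of uncapped poly(A) RNA, had 1 IFC and 1 CFC library, each a mix of the samples of its phenotype. Both phenotypes share the inbred line and the stage, and whole ovaries were compared.

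In plants, miR165 and miR166 pair with the mRNAs of class III HD-ZIP transcription factors, which carry a START domain, and Argonaute proteins loaded with the miRNA cut these mRNAs within the paired stretch. Class III HD-ZIP genes specify the adaxial, or upper, side of leaves and carpels and act in the meristem and in vascular tissue, and miR166 restricts their transcripts from the abaxial side. In maize this was learnt from rolled leaf1, a class III HD-ZIP gene whose miR166 site is altered in dominant leaf mutants. The guide strand lies in the 3p arm of the hairpin and the passenger strand in the 5p arm.

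The 7 guide strands are shown because the results turn on how little they differ. The letters are those of the deposited table, written as DNA, 5′ to 3′, and the capitals mark the seed, bases 2 to 8:
zma-miR166a-3p: tCGGACCAggcttcattcccc
zma-miR166l-3p: tCGGACCAggcttcattcctc
zma-miR166j-3p: tCGGACCAggcttcaatccct
osa-miR166a-3p_R+1: tCGGACCAggcttcattcccca
osa-miR166a-3p_1ss21CA: tCGGACCAggcttcattccca
zma-miR166a-3p_R+3: tCGGACCAggcttcattcccccca
hbr-miR166a_R+2: tCGGACCAggcttcattccta

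All 7 shared the seed CGGACCA and their first 15 bases, and no other of the 161 known miRNAs had this seed. The differences lay at the 3′ end. Positions were counted from 1 at the 5′ end and substitutions were read against zma-miR166a-3p. The substitution was C20T in zma-miR166l-3p. It was T16A with C21T in zma-miR166j-3p, C21A in osa-miR166a-3p_1ss21CA, and C20T with C21A in hbr-miR166a_R+2. Names with osa and hbr were matched to precursors of rice and of the rubber tree. R+1 and R+3 mark the miR166a-3p sequence with an extra A and an extra CCA at its 3′ end, 22 and 24 bases in all, while the other 5 were 21 bases long. The 22-base form, osa-miR166a-3p_1ss21CA and hbr-miR166a_R+2 did not occur letter for letter in the hairpins listed for them, and the other 4 did.

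The deposited table placed members of the family in 14 hairpin intervals at 12 separate loci. The sequence of zma-miR166a-3p lay in 8 of them, on chromosomes 1, 4 and 5, that of zma-miR166l-3p in 2, on chromosomes 3 and 5, and that of zma-miR166j-3p in 2, on chromosomes 5 and 7. The level of a guide is therefore a sum over loci that its reads cannot separate. On chromosome 5 the hairpins of miR166k and miR166m were 103 bases apart, and they hold the guides zma-miR166j-3p and zma-miR166l-3p. RefSeq (assembly Zm-B73-REFERENCE-NAM-5.0) names 13 MIR166 genes on 6 chromosomes. The listed hairpin of each of the 3 most abundant guides is given as the deposited table has it, with the guide in capitals. The genome build of its coordinates is not given in the sources used here:
hairpin of zma-miR166a-3p, chr1:223371668-223371808, minus strand: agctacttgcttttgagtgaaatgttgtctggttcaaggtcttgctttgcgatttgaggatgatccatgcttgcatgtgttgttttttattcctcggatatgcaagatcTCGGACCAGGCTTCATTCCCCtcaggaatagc
hairpin of zma-miR166l-3p, chr3:105560341-105560477, plus strand: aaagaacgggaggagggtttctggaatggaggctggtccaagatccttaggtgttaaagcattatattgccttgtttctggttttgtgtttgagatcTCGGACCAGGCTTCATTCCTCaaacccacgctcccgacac
hairpin of zma-miR166j-3p, chr7:124574856-124575009, plus strand: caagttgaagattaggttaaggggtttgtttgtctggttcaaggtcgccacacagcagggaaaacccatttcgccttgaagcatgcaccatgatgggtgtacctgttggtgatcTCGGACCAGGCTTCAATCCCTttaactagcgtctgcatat

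In these hairpins 17 of the 21 guide bases were drawn as paired in the deposited structures, and the listed free energies were -49.8, -63 and -64.9 kcal/mol.

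In the deposited values the 3 abundant miR166 guides were lower in both IFC libraries than in both CFC libraries, whereas the 4 rarer ones overlapped between the phenotypes, and none of these differences passed the limma test. The expression is given as normalized expression (NE), the reads of a miRNA in RPM of the clean reads of its library. zma-miR166a-3p had an NE of 2852 and 3272 in IFC ovaries, against 4273 and 4535 in CFC ovaries. zma-miR166l-3p had an NE of 2167 and 2314 in IFC ovaries, against 3021 and 2596 in CFC ovaries. zma-miR166j-3p had an NE of 496 and 520 in IFC ovaries, against 1093 and 584 in CFC ovaries. In these 3 members both IFC libraries lay below both CFC libraries, and in zma-miR166j-3p the lower CFC library came close to the IFC libraries. The ratio of the mean NE, IFC over CFC, was 0.695, 0.798 and 0.606 in that order. Among all 145 known miRNAs tested, 14.5% had both IFC libraries below both CFC libraries and 8.28% had both above. Among the 7 guides 3 were below and 0 above, and these counts are a description. Since these are whole ovaries, fewer cells that hold a miRNA and less of it per cell cannot be told apart.

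The 22-base osa-miR166a-3p_R+1 had an NE of 239 and 330 in IFC ovaries, against 86.0 and 420 in CFC ovaries. osa-miR166a-3p_1ss21CA had an NE of 75.6 and 77.8 in IFC ovaries, against 48.4 and 129 in CFC ovaries. In both, the CFC libraries lay on either side of the IFC libraries. The rarest members were zma-miR166a-3p_R+3, with an NE of 8.59 and 10.04 in IFC ovaries against 5.74 and 11.9 in CFC ovaries, and hbr-miR166a_R+2, with 8.59 and 5.44 in IFC ovaries against 6.45 and 3.08 in CFC ovaries. These levels lie near the lowest of the table, where the commonest low NE was 1.15 and 0.837 in the IFC libraries and 0.717 and 0.879 in the CFC libraries.

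**Figure D1:**
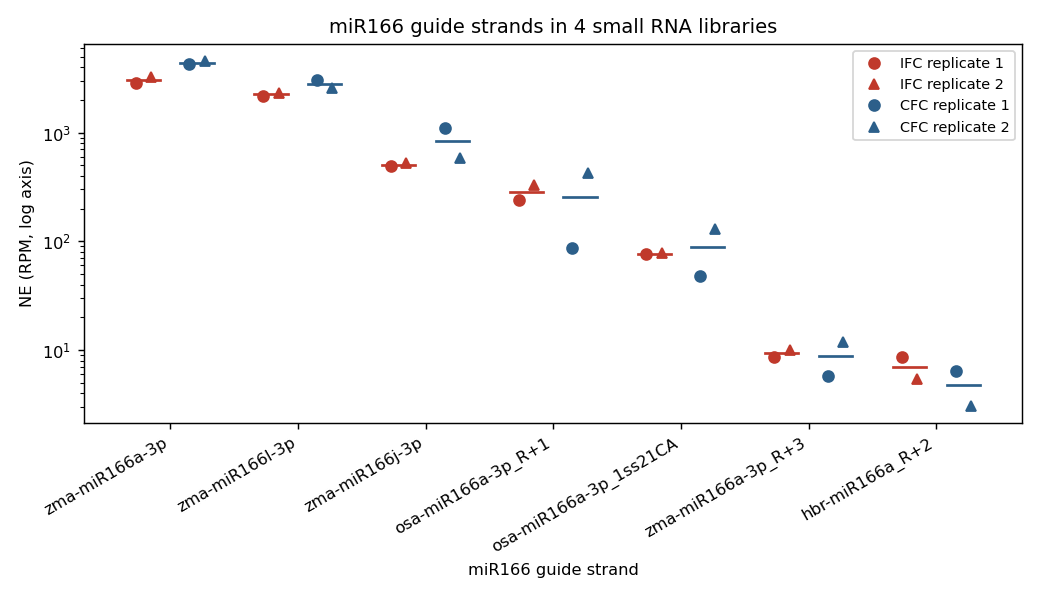
Normalized expression (RPM, log axis) of each miR166 guide strand in each small RNA library, with IFC in red left of CFC in blue, a symbol for each replicate and a line at the group mean (n = 2 each). zma-miR166a-3p, zma-miR166l-3p and zma-miR166j-3p had both IFC libraries below both CFC libraries, and the other 4 overlapped.

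When each guide was tested with limma on log2(NE + 1), none of the 7 passed an adjusted p of 0.05, and 0% of the 145 tested miRNAs did. Without adjustment, 1 of 145 had a p under 0.05, and it was no miR166 member. Without CFC replicate 2, which leaves CFC replicate 1 as the only CFC library, zma-miR166j-3p was at a log2 fold change of -1.10. Without CFC replicate 1 it was at -0.20. For zma-miR166a-3p the log2 fold change over all 4 libraries was -0.53 with an SE of 0.78 (95% interval -2.17 to 1.12, limma adjusted p = 0.999). For zma-miR166l-3p it was -0.32 with an SE of 0.78 (95% interval -1.97 to 1.33, limma adjusted p = 0.999). For zma-miR166j-3p it was -0.65 with an SE of 0.79 (95% interval -2.33 to 1.03, limma adjusted p = 0.999). The intervals leave room for a change in either direction, so they do not show that the phenotypes are alike. The 3 members that overlapped with a positive value were osa-miR166a-3p_R+1 at 0.56, hbr-miR166a_R+2 at 0.51 and zma-miR166a-3p_R+3 at 0.14, while osa-miR166a-3p_1ss21CA was at -0.04. In all, 4 of the 7 guides had a negative log2 fold change, beside 51.0% of all miRNAs tested. Their median was -0.04, beside -0.02 over all 145. An exact permutation test of 2 against 2 libraries cannot give a two-sided p below 0.333.

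In the deposited NE the replicate libraries of the 2 leading guides lay close together. Of the 11 known miRNAs with a mean NE of at least 500, 4 had gaps between replicates under 0.25 on the log2(NE + 1) scale in both phenotypes, and these guides were among them. On this scale IFC replicate 1 minus IFC replicate 2 was -0.20 for zma-miR166a-3p and -0.09 for zma-miR166l-3p. CFC replicate 1 minus CFC replicate 2 was -0.09 for zma-miR166a-3p and 0.22 for zma-miR166l-3p. In the deposited NE the difference between phenotypes in zma-miR166a-3p, 0.53 in size, was thus larger than both of its replicate gaps. The same held for zma-miR166l-3p at 0.32 and, outside the family, for zma-miR164a-5p at 0.28 and zma-miR827-5p_L+1 at 0.89 in size. The rest of the 11 had a replicate gap larger than their difference. The SE that limma gave zma-miR166a-3p is wider because the variance is drawn toward that of all miRNAs, with 13.7 prior and 2 residual degrees of freedom. In osa-miR166a-3p_R+1, CFC replicate 1 minus CFC replicate 2 was -2.28, and in zma-miR166j-3p it was 0.90.

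**Figure D2:**
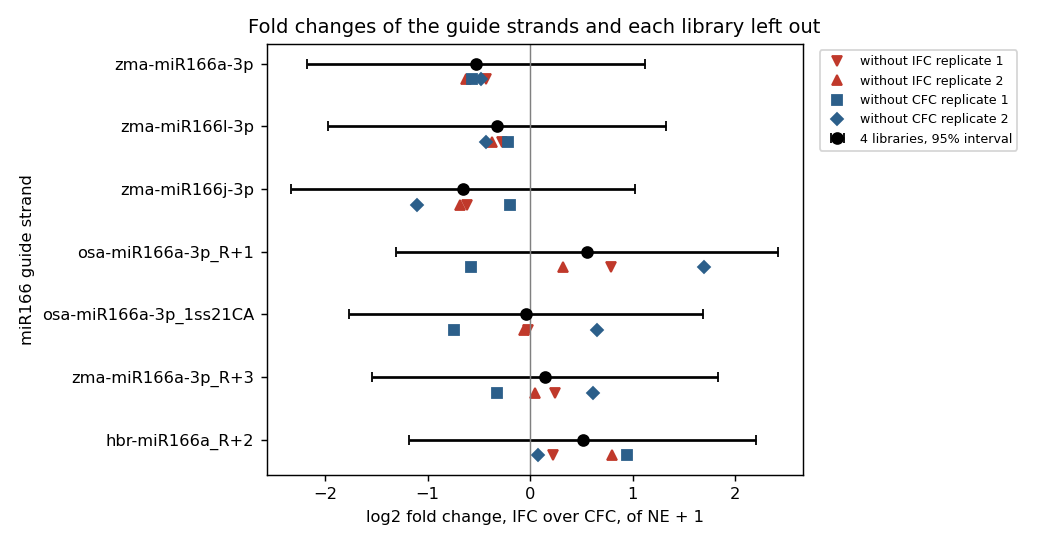
Log2 fold change of NE + 1, IFC over CFC, for each miR166 guide strand, with the 95% limma interval over the 4 libraries in black and, below each, the value without each library. zma-miR166a-3p stayed between -0.63 and -0.43 whichever library was left out, while osa-miR166a-3p_R+1 lay at -0.58 without CFC replicate 1 and at 1.69 without CFC replicate 2.

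zma-miR166a-3p was the member whose side did not depend on the scaling. With the libraries scaled by median-of-ratios factors it had an NE of 3596 and 2631 in IFC ovaries, against 4130 and 4425 in CFC ovaries. With the known miRNAs brought to an equal sum it had an NE of 3743 and 3110 in IFC ovaries, against 3834 and 4053 in CFC ovaries. Under both scalings zma-miR166l-3p and zma-miR166j-3p overlapped between the phenotypes. In IFC ovaries zma-miR166l-3p had an NE of 2732 and 1861 with median-of-ratios factors, and of 2843 and 2199 with an equal sum. The IFC replicates of zma-miR166a-3p and zma-miR166l-3p thus lay further apart under both scalings than in the deposited NE. The comparison of differences with replicate gaps above holds for the deposited NE only. The log2 fold change of zma-miR166l-3p was -0.27 with median-of-ratios factors and -0.0042 with an equal sum. Bringing the known miRNAs to an equal sum moved the median of all tested miRNAs to 0.25, where zma-miR166a-3p was at -0.21. Relative to the median of all tested miRNAs, zma-miR166a-3p was at -0.46 with an equal sum and at -0.50 in the deposited NE.

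**Figure D3:**
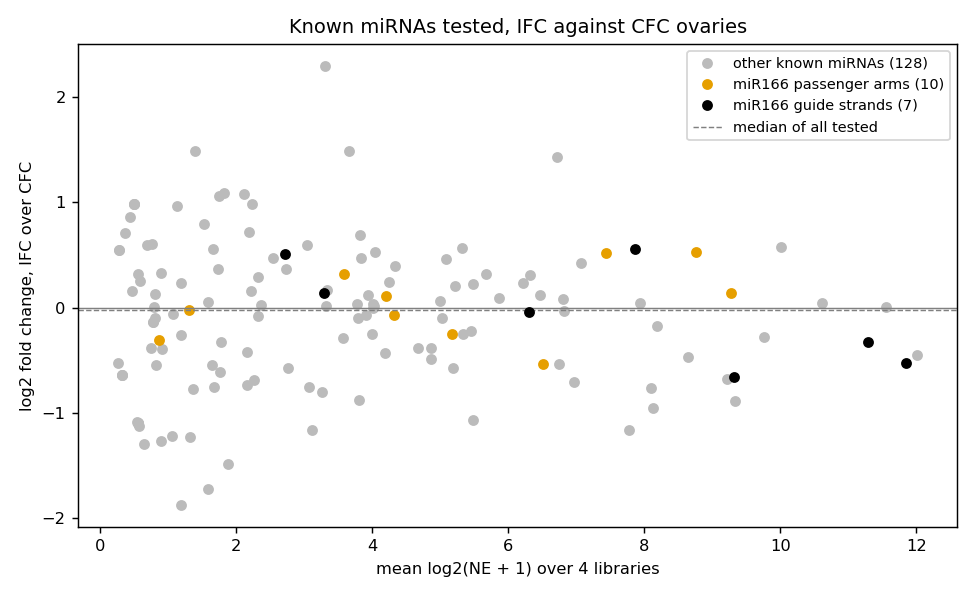
Log2 fold change, IFC over CFC, against the mean log2(NE + 1) over the 4 libraries for the 145 known miRNAs tested, with the 7 miR166 guide strands in black and the 10 tested passenger arms in orange. The 3 most abundant guides lie at -0.53, -0.32 and -0.65, within the spread of the other miRNAs, whose median is -0.02 (dashed).

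Summed over the 7 guides, the NE was 5847 and 6530 in IFC ovaries, against 8534 and 8280 in CFC ovaries. The sums averaged 6188 ± 483 in IFC ovaries and 8407 ± 179 in CFC ovaries (SD, n = 2 each), a ratio of 0.736, and did not overlap. All other known miRNAs together had an NE of 13408 and 20060 in IFC ovaries, against 19623 and 19998 in CFC ovaries. Of the NE of all known miRNAs, the guides held 30.4% and 24.6% in IFC ovaries, against 30.3% and 29.3% in CFC ovaries. The summed levels thus did not overlap between the phenotypes, while the shares did. With the known miRNAs at an equal sum, the guides summed to 7673 and 6205 in IFC ovaries and to 7658 and 7399 in CFC ovaries, which overlapped.

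zma-miR166a-3p alone made up 48.8% and 50.1% of the guide NE in IFC ovaries, against 50.1% and 54.8% in CFC ovaries. zma-miR166l-3p, which differs from it by C20T, made up 37.1% and 35.4% in IFC ovaries, against 35.4% and 31.4% in CFC ovaries. The 3 most abundant guides together took 94.3% and 93.5% in IFC ovaries, against 98.3% and 93.2% in CFC ovaries. By length, 95.8% and 94.8% of the guide NE was 21 bases long in IFC ovaries, against 98.9% and 94.8% in CFC ovaries.

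CFC replicate 1 stood apart from the other 3 libraries in the make-up of the family. The 22-base form reached 8.37% and 10.1% of the NE of zma-miR166a-3p in IFC ovaries, against 2.01% and 9.27% in CFC ovaries. The passenger arms of the family, 11 listed sequences of the 5p arm, summed to an NE of 1460 and 1646 in IFC ovaries, against 830 and 2087 in CFC ovaries. The guide NE was 4.005 and 3.967 times the passenger NE in IFC ovaries, against 10.3 and 3.968 times in CFC ovaries. In 3 of the 4 libraries this ratio was nearly equal, and the odd value belonged to CFC replicate 1. Wide gaps between the CFC replicates were not confined to the family. On the log2(NE + 1) scale they were 2.39 for zma-miR396c_L-1 and 1.92 for zma-miR159c-3p_L-1R-1 in size. For zma-miR164a-5p and zma-miR827-5p_L+1 they were 0.18 and 0.23. What sets CFC replicate 1 apart was not tested.

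**Figure D4:**
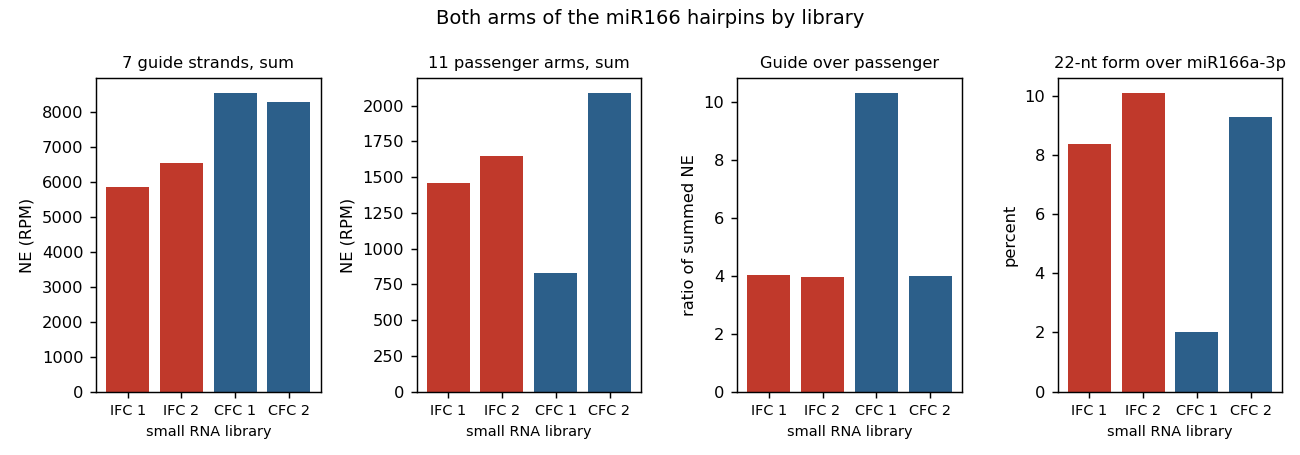
Summed NE (RPM) of the guide strands, summed NE of the passenger arms, their ratio, and the 22-base form as a percentage of zma-miR166a-3p, one bar per small RNA library with IFC in red left of CFC in blue. CFC replicate 1 has the ratio of 10.3 and the 22-base share of 2.01%, apart from the other 3 libraries.

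Each passenger arm is listed with a hairpin, but whether its sequence also occurs in other hairpins was not checked. zma-miR166c-5p, from a hairpin on chromosome 4, had an NE of 652 and 643 in IFC ovaries, against 350 and 989 in CFC ovaries. zma-miR166m-5p, from chromosome 5, had an NE of 511 and 527 in IFC ovaries, against 239 and 536 in CFC ovaries. In both, CFC replicate 1 was the lowest of the 4 libraries. zma-miR166b-5p, from the hairpin that the table also lists for zma-miR166a-3p, had an NE of 144 and 294 in IFC ovaries, against 68.5 and 299 in CFC ovaries. zma-miR166j-5p, from the hairpin listed for zma-miR166j-3p, stayed at an NE of 2.29 and 0.837 in IFC ovaries, against 0.717 and 2.64 in CFC ovaries. The passenger of the other miR166j-3p locus, zma-miR166k-5p, was far more abundant. It had an NE of 86.5 and 64.9 in IFC ovaries, against 124 and 95.3 in CFC ovaries, both IFC libraries below both CFC libraries, and it was highest in CFC replicate 1, as zma-miR166j-3p was. This arm was chosen for naming after its values were seen. The rarest passengers, osa-miR166a-5p_R-1_1ss1GT and osa-miR166a-5p_1ss18AG, were at 0 in IFC replicate 1 and CFC replicate 1. Of the 10 passenger arms tested, 5 had a positive and 5 a negative log2 fold change, with a median of 0.04, and limma called 0.

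Grouped by guide, zma-miR166l-3p stood at 4.24 and 4.39 times zma-miR166m-5p in IFC ovaries, against 12.6 and 4.84 times in CFC ovaries. This guide lies in 2 hairpins, on chromosomes 3 and 5, and the passenger is that of the hairpin on chromosome 5. No passenger was listed for the other hairpin. zma-miR166a-3p stood at 3.32 and 3.11 times the sum of its 8 passengers in IFC ovaries, against 9.18 and 3.12 times in CFC ovaries. zma-miR166j-3p stood at 5.59 and 7.91 times its passengers in IFC ovaries, against 8.74 and 5.96 times in CFC ovaries. CFC replicate 1 thus stood far above the other libraries in the miR166a and miR166l hairpins, while in those of miR166j its 8.74 lay next to the 7.91 of IFC replicate 2.

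On the side of the targets, the cleavage signal was lower in IFC than in CFC ovaries at all 4 HD-ZIP genes. The same held for 64.9% of the 131 degradome sites with signal in either library, which include sites at 0 in the other. GRMZM2G552083 and GRMZM2G003509 had the same IFC signal of 25.3 TPB, so the 4 genes are not separate observations. The annotation of each gene names a homeobox-leucine zipper and a lipid-binding START domain and does not name the class. The signal is given in TPB, the number of tags that start at the cut, normalised by all raw reads sequenced from that library. Taken as 1 read, the commonest signal of sites with a single tag was 59.1 TPB in the IFC and 59.9 TPB in the CFC library, and a count of 3 reads, the limit that a count of 0 allows, was 177 and 180 TPB. Each phenotype had 1 library, so no difference in TPB has a replicate check.

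GRMZM2G038198 carried the main signal. At base 496 of its transcript it had 5819 TPB in IFC ovaries, against 7554 TPB in CFC ovaries, which is 98.4 and 126 reads. It was the site with rank 5 of 131 by TPB and gave 88.4% of the signal over the 4 genes in IFC ovaries and 85.1% in CFC ovaries. The ratio, IFC over CFC, was 0.770, and with the reads rounded to whole numbers its exact conditional 95% interval was 0.583 to 1.01. AC187157.4_FGT005 had 709 TPB at base 574 in IFC ovaries, against 899 TPB in CFC ovaries, which is 12 and 15 whole reads. Its ratio was 0.789 (exact conditional 95% interval 0.337 to 1.81). Both intervals cover counting error only and include a ratio of 1. Relative to each other these genes kept nearly the same proportion, since GRMZM2G038198 had 8.20 times the TPB of AC187157.4_FGT005 in IFC ovaries and 8.40 times in CFC ovaries.

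The other 2 genes rested on very few reads. GRMZM2G552083 had 25.3 TPB at base 556 in IFC ovaries, against 188 TPB in CFC ovaries. GRMZM2G003509, which RefSeq lists as LOC100279785 on chromosome 1, had 25.3 TPB in IFC ovaries, against 231 TPB in CFC ovaries, at base 747 or 988 in its 2 transcripts. The IFC signals are 0.429 of a read and the CFC signals 3.14 and 3.85 reads. In IFC ovaries they lie under the limit that a count of 0 allows, and no fold change is given. Rounding to whole reads turned the IFC signal of 0.429 of a read into 0. The exact conditional 95% interval of the ratio then reached from 0 to 2.39 for GRMZM2G552083 and from 0 to 1.49 for GRMZM2G003509. These intervals hold for the rounded reads and not for the fractions as deposited, so they do not decide whether the ratio differs from 1. By the deposited TPB alone these 2 of the 4 genes passed a cut of over 1.5-fold lower in IFC ovaries, beside 35.8% of the sites with signal in both libraries. Both did so on the same IFC signal of 0.429 of a read, so this count is a description only. Over all sites with signal in both libraries the median log2 ratio was -0.19.

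The low signals recurred between genes. The IFC signal of 25.3 TPB was listed for 5 transcripts of 4 genes, and multiplied by 7 it is 3 whole reads. The CFC signal of 188 TPB was listed for 3 of these genes, and multiplied by 7 it is 22 whole reads. The genes beside the HD-ZIP genes were GRMZM2G123644 and GRMZM2G336718, both annotated with an agenet domain and a bromo-adjacent homology domain, at bases 556 and 146. Less the shared value, GRMZM2G038198 had 98 whole reads in the IFC library, but 122.9 reads, no whole number, in the CFC library. GRMZM2G003509 lay 0.702 of a read above the shared value in the CFC library. GRMZM2G552083 and both agenet genes had equal signals in each library, so that their sites cannot be told apart here.

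**Figure D5:**
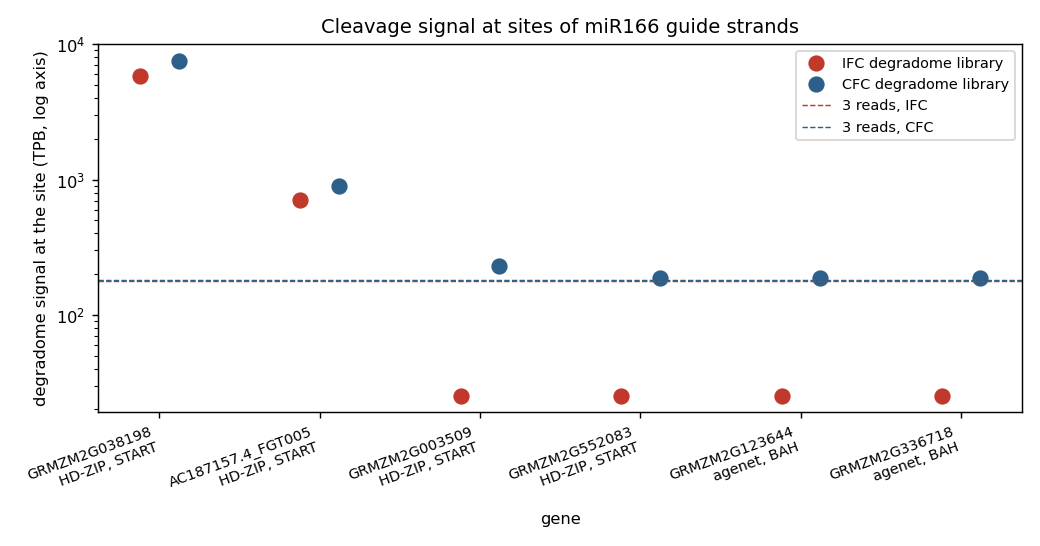
Degradome signal (TPB, log axis) at the sites of miR166 guide strands in 4 HD-ZIP genes and 2 agenet genes, with the IFC library in red left of the CFC library in blue and dashed lines at 3 reads. GRMZM2G038198 and AC187157.4_FGT005 lie well above 3 reads in both libraries, and the other sites share 25.3 TPB in the IFC library.

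The sites were also graded by category. A site of category 0 is the only maximum of its transcript, category 2 lies between the median and the maximum, category 3 at or below the median, and category 4 is a lone read. GRMZM2G038198 and AC187157.4_FGT005 were of category 0 in both libraries. The deposited p-values over the guides ran from 0.0107 to 0.0209 in IFC and from 0.0109 to 0.0214 in CFC ovaries at GRMZM2G038198, and from 0.00999 to 0.0179 in IFC and from 0.0102 to 0.0184 in CFC ovaries at AC187157.4_FGT005. GRMZM2G552083 was of category 2 in IFC ovaries (deposited p from 0.671 to 0.888) and of category 0 in CFC ovaries (deposited p from 0.0109 to 0.0214). GRMZM2G003509 was of category 3 in IFC ovaries (deposited p from 0.0884 to 0.169) and of category 2 in CFC ovaries (deposited p from 0.484 to 0.734). With Class I as category 0 or 1 at a deposited p of at most 0.05, 3 of the 4 HD-ZIP genes were in Class I in their better library, beside 31.9% of all 113 genes. In both libraries 2 of the 4 were, beside 22.1% of all genes. GRMZM2G552083 was in Class I in the CFC library only. Its 188 TPB there were also listed for both agenet genes, which were of category 2, so its class rests on a signal that cannot be assigned to it alone.

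Every HD-ZIP site lay opposite base 10 of the guide, as did 83.2% of all degradome rows, and so within the first 15 bases that all 7 guides share. The alignment score, a sum of mismatch penalties in which a lower score is a closer match, ran from 2 to 4. At GRMZM2G038198 and GRMZM2G552083 the score was 4 for zma-miR166a-3p and zma-miR166l-3p, 3.5 for zma-miR166j-3p and 3 for osa-miR166a-3p_1ss21CA and hbr-miR166a_R+2. At GRMZM2G003509 it was 3 for zma-miR166a-3p, 2.5 for zma-miR166j-3p and 2 for osa-miR166a-3p_1ss21CA and hbr-miR166a_R+2. At AC187157.4_FGT005 it was 3 for zma-miR166a-3p and 2.5 for zma-miR166j-3p. The best scores at GRMZM2G038198, GRMZM2G552083 and GRMZM2G003509 thus belonged to the rarer members osa-miR166a-3p_1ss21CA and hbr-miR166a_R+2, which share C21A. AC187157.4_FGT005 was the HD-ZIP gene listed for all 7 guides, and the other 3 were listed for 6, without the 22-base form. A degradome tag marks the cut and not the guide that made it, so the signal cannot be divided among the guides.

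Passenger arms had few sites. GRMZM2G037698, a MOS4-associated complex 3A gene, was listed for zma-miR166j-5p with 14.8 TPB in IFC ovaries, against 45.0 TPB in CFC ovaries, under 1 read in both. GRMZM2G425751, annotated as ataxia-telangiectasia mutated, a kinase of the DNA damage response, had 59.1 TPB in IFC ovaries, against 0 TPB in CFC ovaries, which is 1 read against none.

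Known miRNAs that act beside miR166 were read from the same fit. miR390 triggers the tasiRNAs that act against auxin response factors in leaf polarity, while miR162 and miR168 target DICER-LIKE1 and ARGONAUTE1, which make and load miRNAs. Of the 7 listed sequences of these families limma called 0, with 4 positive and 3 negative log2 fold changes. This count mixes sequences of both hairpin arms, and guide and passenger strands were not separated in it. zma-miR390a-5p had an NE of 181 and 221 in IFC ovaries, against 447 and 337 in CFC ovaries, without overlap, and a log2 fold change of -0.95 (SE 0.78, limma adjusted p = 0.999). zma-miR168a-5p had an NE of 178 and 244 in IFC ovaries, against 302 and 417 in CFC ovaries, also without overlap, at -0.76 (SE 0.78, limma adjusted p = 0.999). zma-miR162-3p_R+1 had an NE of 134 and 177 in IFC ovaries, against 98.2 and 134 in CFC ovaries. Its nearest IFC and CFC libraries were level. zma-miR168b-3p_R+1, with 720 and 2202 in IFC ovaries against 443 and 1614 in CFC ovaries, and zma-miR168a-3p_R+1, with 61.8 and 133 in IFC ovaries against 75.6 and 91.8 in CFC ovaries, overlapped.

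Of 57 known miRNAs outside the family with a mean NE of at least 10, the pattern over the 4 libraries most like the summed guides was that of zma-miR164a-5p, whose family targets NAC genes. Its centred log2(NE + 1) lay 0.129 from that of the summed guides on average. Its NE was 823 and 748 in IFC ovaries, against 896 and 1013 in CFC ovaries. zma-miR168a-5p followed at 0.206 and osa-miR164a_1ss21AG at 0.213, the last with an NE of 10.3 and 9.21 in IFC ovaries, against 15.1 and 9.67 in CFC ovaries.

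The read depth behind the NE values is not settled. If the commonest low NE of a library is taken as 1 read, NE was divided by 873087 and 1194843 reads in the IFC and 1394657 and 1138014 reads in the CFC libraries, which is fewer than the valid reads that the study lists. In the IFC libraries 5 and 4 listed values, and in the CFC libraries 3 and 8, lay below that commonest value. For the degradome, the signal of a lone read gave 16915044 reads in the IFC and 16680835 reads in the CFC library. The known miRNAs summed to an NE of 19255 and 26590 in IFC ovaries, against 28156 and 28278 in CFC ovaries. A miRNA table holds no gene that defines the ovary. The 7 listed miR2118 and miR2275 sequences, which trigger phasiRNAs in anthers, summed to an NE of 33.2 and 49.4 in IFC ovaries, against 43.4 and 19.3 in CFC ovaries, with 4, 3, 1 and 3 of them at 0 in that order of libraries. The part of other floral tissue in the guide levels was not tested.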

How the data were processed

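Small RNA of 2 IFC and 2 CFC samples and 1 degradome library of each phenotype were used, grouped by the sample labels. NE was deposited in RPM: the authors trimmed reads, removed structural RNAs and repeats, mapped to miRBase 21.0 precursors with ACGT101-v4.2-miR and divided by the clean reads of the library. Degradome signals were deposited by the authors as TPB, a score here, with a CleaveLand 3.0.1 category and p-value per site. Neither a genome nor a transcript build is named in the sources used here. The deposited target prediction table was not used.

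The members and lists were chosen with earlier results of these data known. Named were all guides and their degradome genes, the 2 most abundant passenger arms and those of hairpins that also give a guide, the miR390, miR162 and miR168 members with a mean NE over 50, and the 3 miRNAs nearest in pattern. An NE above 1 in any library was required, which left 145 known miRNAs, fitted as log2(NE + 1), with a pseudocount of 1, in limma 3.58.1 under R 4.3.3 (lmFit, eBayes), IFC against CFC, two-sided, with Benjamini-Hochberg adjustment over all. A fold change on this scale understates that of low members. Low NE values were only partly whole reads, so no count model was run. Whether the replicates are separate plants is not stated, and p-values measure only the spread between these samples. Ratios of TPB have exact conditional intervals, with reads counted as whole within 0.01. Alternatives were other pseudocounts, filters and scalings, a robust fit, a replicate block and leaving out each library. Those of the degradome were ratios relative to all sites and other class rules. Intervals from rounded reads, GRMZM2G038198 without its shared part of a read and the guide sum without zma-miR166j-3p were added after seeing the data. Python 3.11.15, numpy 2.4.6, pandas 2.3.3, scipy 1.17.1 and matplotlib 3.10.9 were used.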

Additional observations from a re-analysis of the deposited data

How the results depend on the processing

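Each phenotype had 2 small RNA libraries, so no miR166 guide could pass an exact test, and the degradome had no replicates. No setting gave a limma call: with the replicate block, with each pseudocount, filter and scaling, and without each library, 0 known miRNAs passed. Whether a replicate number marks the same ear row in both phenotypes is not stated (correlation of same-numbered deviations 0.25 across 145 miRNAs). The replicate block left 0 calls. Unadjusted p under 0.05 numbered 1 as reported and 3 with the block. zma-miR166a-3p, zma-miR166l-3p, zma-miR166j-3p and hbr-miR166a_R+2 kept their sign in every setting run, but not their size. For the first 3 of these, leaving out a library could not change the sign, since both IFC libraries lay below both CFC libraries. The filters, the robust fit and the replicate block leave the fold change itself unchanged. With an equal sum of known miRNAs zma-miR166l-3p was at -0.0042. Without a library these members ranged from -0.63 to -0.43, from -0.43 to -0.21, from -1.10 to -0.20 and from 0.08 to 0.95 in that order. The ends for zma-miR166j-3p and hbr-miR166a_R+2 were those without either CFC replicate. osa-miR166a-3p_1ss21CA turned to 0.0087 with median-of-ratios factors and to 0.27 with an equal sum of known miRNAs. Leaving out a library gave -0.74 to 0.65 for osa-miR166a-3p_1ss21CA, -0.58 to 1.69 for osa-miR166a-3p_R+1 and -0.32 to 0.61 for zma-miR166a-3p_R+3. The negative values of the R+1 and R+3 forms, -0.58 and -0.32, were those without CFC replicate 1, and 1ss21CA was at 0.65 without CFC replicate 2. The median of the guides was 0.0087 with median-of-ratios factors, 0.27 with an equal sum, and -0.32 to 0.08 without a library. Under an equal sum all tested miRNAs had 88 positive and 56 negative values, against 71 and 74 as deposited. The log2 ratio of the summed guides was -0.44, -0.12 with an equal sum, -0.37 with median-of-ratios factors and -0.52 to -0.36 without a library. The share of the known miRNA NE, IFC minus CFC, was -2.33 percentage points, and -5.24 to 0.570 without a library, positive without IFC replicate 2. The number of guides whose phenotypes did not overlap was 3 as deposited, beside 14.5% of all 145 tested miRNAs below and 8.28% above. It was 1 under either other scaling, and 3 to 7 without a library, where fewer libraries make an overlap less likely. The share over all tested miRNAs was not counted in those settings, so their numbers cannot be read as a result about the guides. In the degradome, counting a class only where both libraries reach it left 2 of 3 HD-ZIP genes in Class I. Relative to the median of all sites the log2 ratio was -0.19 for GRMZM2G038198 and -0.15 for AC187157.4_FGT005. The number of HD-ZIP genes with a lower TPB stayed at 4. Of these, GRMZM2G552083 and GRMZM2G003509 rest on the same IFC signal of 0.429 of a read. How all sites divide around their own median is fixed by its definition, so this count is a description only.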
